A study of Mus musculus with 2 samples.

Results

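Trem2, Tyrobp, Cst7, Spp1, Gpnmb, Itgax, Clec7a and Axl were described in macrophages of the adult mouse sciatic nerve. These 8 genes, of 54838 listed in the count matrices, are the Trem2 receptor with its adaptor and 6 genes by which disease-associated microglia are recognised. Macrophages staining for CD64 (an Fc receptor used to mark macrophages) with intermediate CD45 were sorted from nerves of 19 pooled male mice aged 10 to 12 weeks. The mice carried Flt3-Cre and a loxP-stop-loxP YFP reporter on both alleles. YFP therefore marks descendants of cells that once expressed Flt3, which the study reads as derived from haematopoietic stem cells, and YFP-negative macrophages as derived from embryonic precursors. Cells of both sorts came from the same untreated mice and were made into 1 droplet library each (10x Genomics, version 2 chemistry). A barcode was taken as a cell from 500 UMIs (unique molecular identifiers, each 1 captured RNA molecule) and 200 genes upwards. This left 1045 YFP-negative and 4053 YFP-positive cells. With 1 library per condition there is no test between conditions. Intervals below are 95% intervals of counting error only, and Cre that failed to recombine in some cells, pooling and library preparation are not covered by them.

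TREM2 is a surface receptor of myeloid cells for lipids, lipoproteins and debris. It has no signalling tail of its own and depends on TYROBP (DAP12), a small membrane adaptor whose phosphorylated motif recruits the kinase SYK. In the brain, loss of TREM2 keeps microglia from fully entering the disease-associated state around plaques and damaged myelin. In that state microglia lower homeostatic genes and raise lysosomal, lipid-handling and phagocytic genes. Of the other members, Clec7a (Dectin-1) is a pattern receptor for fungal glucans that signals through SYK, and Axl is a receptor kinase that clears dying cells through its bridging ligand GAS6. Spp1 encodes osteopontin, a secreted integrin and CD44 ligand, and Gpnmb a lysosomal and surface glycoprotein. Itgax encodes integrin alpha X (CD11c), and Cst7 cystatin F, an inhibitor of lysosomal cathepsins.

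In the GRCm38 build with the GENCODE M21 annotation, Trem2 (ENSMUSG00000023992) spans chr17:48346401-48354147 on the plus strand. Tyrobp (ENSMUSG00000030579) spans chr7:30413760-30417585 on the plus strand. It ends 126 bases from Hcst, the gene of the related adaptor DAP10, which lies on the minus strand. Clec7a (ENSMUSG00000079293, chr6:129461591-129472779, minus strand) carries the biotype polymorphic pseudogene there, meaning that it is intact in some strains. Axl (ENSMUSG00000002602) lies at chr7:25757273-25788705 on the minus strand. Spp1 (ENSMUSG00000029304) lies at chr5:104435118-104441050 on the plus strand. It overlaps the predicted gene Gm42793, which had 2 UMIs. Gpnmb (ENSMUSG00000029816) is at chr6:49036546-49070929, Itgax (ENSMUSG00000030789) at chr7:128129547-128150657 and Cst7 (ENSMUSG00000068129) at chr2:150570415-150578944, each on the plus strand. Apart from Spp1, no member overlapped another annotated gene.

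RefSeq promoter windows (GRCm38.p6) were at hand for 7 of the 8 members, without Tyrobp. The stretches of 160 bases just before the start of Trem2, Itgax and Spp1 are shown because a well detected, a nearly undetected and an unevenly distributed member stand beside each other in them. All run 5′ to 3′ on the plus strand. Capitals mark matches on either strand to the AP-1 motif TGANTCA, the PU.1 motif GAGGAAGT and the interferon-type motif GAAANNGAA.
Trem2, chr17:48346241-48346400: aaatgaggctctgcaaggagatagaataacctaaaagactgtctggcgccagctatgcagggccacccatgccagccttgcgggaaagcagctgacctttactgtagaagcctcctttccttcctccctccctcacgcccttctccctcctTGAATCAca
Itgax, chr7:128129390-128129549: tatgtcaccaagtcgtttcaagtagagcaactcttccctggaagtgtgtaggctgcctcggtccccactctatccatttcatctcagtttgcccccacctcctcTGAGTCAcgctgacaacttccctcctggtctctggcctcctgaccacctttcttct
Spp1, chr5:104434951-104435110: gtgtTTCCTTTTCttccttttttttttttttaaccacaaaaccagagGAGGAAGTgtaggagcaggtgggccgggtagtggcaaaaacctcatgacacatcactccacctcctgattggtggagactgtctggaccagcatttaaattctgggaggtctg
TGANTCA was found within 250 bases before the start in 6.75% of 32851 mouse promoter windows, GAGGAAGT in 2.44% and GAAANNGAA in 7.13%. Trem2 and Itgax both held TGANTCA, beginning 9 and 56 bases before the start. The main Spp1 window held GAGGAAGT at 113 bases, GAAANNGAA at 156 bases and TATAAA, found in 12.4% of windows, at 211 bases. A second Spp1 window and the windows of Clec7a, Axl, Gpnmb and Cst7 held no match to these motifs or to the E-box CACGTG (6.02% of windows). TGANTCA thus stood before a member that was well detected in these cells and before one that was nearly undetected.

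The members fell into a detected and a nearly undetected set. Tyrobp, Trem2, Axl and Clec7a had at least 320 UMIs in each library. Spp1 was sparse, Gpnmb and Itgax were at or near the counting floor of 3 UMIs, and Cst7, a listed gene, had no count in either matrix. UMIs are counted at the 3′ end of a transcript, so levels are given in CPM (counts per 1000000 UMIs of the cells of a library) without division by gene length.

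Tyrobp, the adaptor, had 6683 UMIs in YFP-negative and 17397 in YFP-positive cells. These are levels of 2764 CPM (interval 2698 to 2831) and 2578 (2540 to 2617). By level it ranked 48 of 17758 genes detected in the YFP-negative library and 55 of 19951 in the YFP-positive library. Trem2 itself had 766 and 2381 UMIs, or 317 CPM (295 to 340) against 353 (339 to 367), ranks 402 and 329. The adaptor, which serves several myeloid receptors, thus stood well above Trem2 in both libraries.

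Clec7a had 328 and 864 UMIs, at 136 and 128 CPM. Axl had 320 and 943 UMIs, at 132 and 140 CPM. These genes ranked 939 and 969 in the YFP-negative library and 964 and 877 in the YFP-positive library, so their order turned between libraries. In the YFP-negative library each level lay within the interval of the other, and in the YFP-positive library the intervals (120 to 137 for Clec7a, 131 to 149 for Axl) overlapped.

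Spp1 had 46 and 118 UMIs, or 19.0 and 17.5 CPM, and ranked 5760 and 5879. Gpnmb had 4 and 8 UMIs, at 1.65 and 1.19 CPM, in 9 cells. Itgax had 1 and 2 UMIs, each in a different cell. Cst7 had no UMI in a cell, and none in any of the 124162 and 187104 barcodes with a UMI. Over both libraries 0 of 9165598 UMIs allows up to 0.327 CPM by the floor of 3 counts, and up to 0.40 by the exact Poisson interval. Neither Itgax nor Cst7 permits a ratio, and levels under these limits would not be detectable at this depth.

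**Figure D1:**
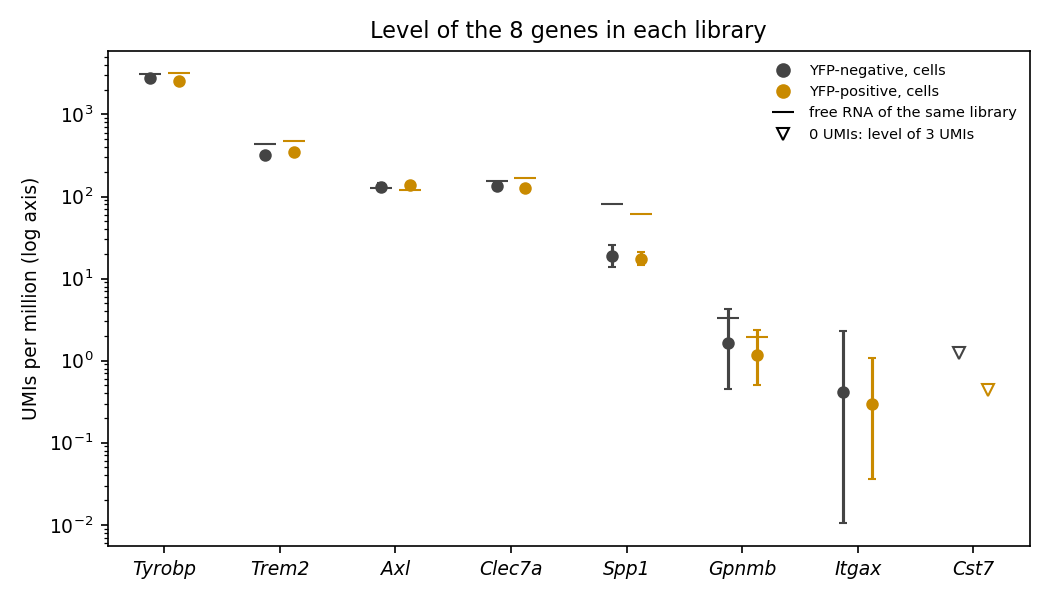
CPM (log axis) of the 8 genes in YFP-negative (grey) and YFP-positive (ochre) cells, 1 library each. Points are levels with exact Poisson 95% intervals, dashes the level in free RNA of the same library, and open triangles the level that 3 UMIs would give where none was counted. Tyrobp lies at 2764 and 2578 and Cst7 has no UMI.

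Over all cells the detected members differed little between the libraries. Trem2 was slightly higher in the YFP-positive library, by 0.16 on the log2 scale (0.04 to 0.27, with 1 CPM added to each level). Tyrobp was slightly lower there, at -0.10 (-0.14 to -0.06). For Clec7a the value was -0.08 (-0.27 to 0.10), for Axl 0.08 (-0.11 to 0.26) and for Spp1 -0.12 (-0.59 to 0.38), intervals that hold 0. Of the 4 members with a mean level of at least 20 CPM, 0 passed a 1.5-fold difference. Over all 5531 genes with that level, 7.3% passed it in either direction, 1.54% higher and 5.77% lower in YFP-positive cells. The median over these genes was close to 0 on the log2 scale.

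The small Trem2 difference moved with 1 group of cells, described below, which is led by S100a4, S100a6, Anxa2 and Ccr2. It made up 13.1% of YFP-positive and 4.59% of YFP-negative cells, and held 23.1% and 7.70% of the Trem2 UMIs of each library. Without these cells Trem2 stood at 308 CPM in YFP-negative and 320 in YFP-positive cells, a log2 ratio of 0.06 (-0.07 to 0.18). This interval overlaps that over all cells. The cells were chosen after the data were seen. They held the most Trem2 and were more frequent among YFP-positive cells, so a smaller ratio without them was given in advance. The Tyrobp ratio without them was -0.08 (-0.13 to -0.04). Split by cluster, the interval of the Trem2 ratio between libraries left out 0 in 1 cluster only. In cells led by Ifit3 and Irf7, Trem2 had 25 UMIs in the YFP-negative and 111 in the YFP-positive library, or 236 and 397 CPM, a log2 ratio of 0.75 (0.11 to 1.43). In the other 9 clusters the interval of its ratio held 0. The ratios there ran from -0.38 in Fhl3-led to 1.60 in Myh11-led cells, and whether the clusters differ was not tested.

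The genes around the receptor were taken as a list of 25 ligands, sheddases, kinases, adaptors and relatives. 16 of them reached a mean of 20 CPM, and 0 of these passed 1.5-fold in either direction, beside 7.3% of all genes at that level. The median log2 ratio of the 16 was 0.05. Apoe, a lipoprotein and TREM2 ligand, was the most abundant at 27396 CPM in YFP-negative and 21402 in YFP-positive cells, a ratio of -0.36 (-0.37 to -0.34). Free RNA of these libraries, described below, held Apoe at 37533 and 26456 CPM. The parts of free RNA and of the mix of clusters in the Apoe ratio were not tested. Inpp5d, the lipid phosphatase SHIP1 that opposes TREM2 signalling, stood at 129 and 144 CPM. The kinase Lyn stood at 138 and 135. Trem1, Trem3 and Treml4, relatives of Trem2 beside it in the genome, had no UMI, Treml2 had 1 and Treml1 had 9. Of the Trem receptors listed, Trem2 was therefore the one with counts clearly above the floor.

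Ligands, targets and partners of the other members formed a list of 20 genes, of which 14 were abundant enough to compare. Of the 14, 0 passed 1.5-fold, beside 7.3% of all genes. Gas6, the ligand that links AXL to dying cells, stood at 565 and 416 CPM, a ratio of -0.44 (-0.53 to -0.35). In both libraries the ligand stood above its receptor Axl in CPM. Ctsc, a cathepsin inhibited by cystatin F, stood at 1028 and 957 CPM, and Lgmn, the lysosomal protease legumain, at 603 and 616. Ctsc and Lgmn, named for their high level in the list, were thus abundant in cells in which Cst7 was not counted. Ctsl, another cathepsin listed as a target, was lower, at 77.3 and 65.9 CPM.

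Among 29 further genes of the disease-associated state, 24 were abundant enough to compare. Of these 1 was higher past 1.5-fold in YFP-positive cells and 0 were lower, beside 1.54% and 5.77% of all genes. The median log2 ratio of the 24 was -0.11. The gene past 1.5-fold was Ccl4, a chemokine, at 166 and 266 CPM (0.68, interval 0.52 to 0.84). Ccl4 was among the leading genes of a cluster led by Cxcl2 and Hspa1a, described below. That cluster made up 7.46% of YFP-negative and 14.6% of YFP-positive cells, and its part in the Ccl4 ratio was not tested. The most abundant genes of this list were Apoe, Lyz2 (lysozyme) at 11859 and 12424 CPM, and the ferritin chain Fth1 at 5915 and 5979. Of 12 homeostatic microglia genes 9 were compared, too few to set against the shares over all genes. Of them 0 were higher and 1 was lower. This was P2ry13, a nucleotide receptor, at 39.7 and 22.2 CPM (-0.81, interval -1.18 to -0.44). The most abundant homeostatic genes were Cst3 (cystatin C) at 8108 and 7888 CPM, Csf1r (the receptor for macrophage colony-stimulating factor) at 992 and 873, and Cx3cr1 (the fractalkine receptor) at 273 and 337. Genes of both lists were thus counted in nerve macrophages, while Sall1, a transcription factor that defines microglia, had no UMI, as was the case for Cst7.

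**Figure D2:**
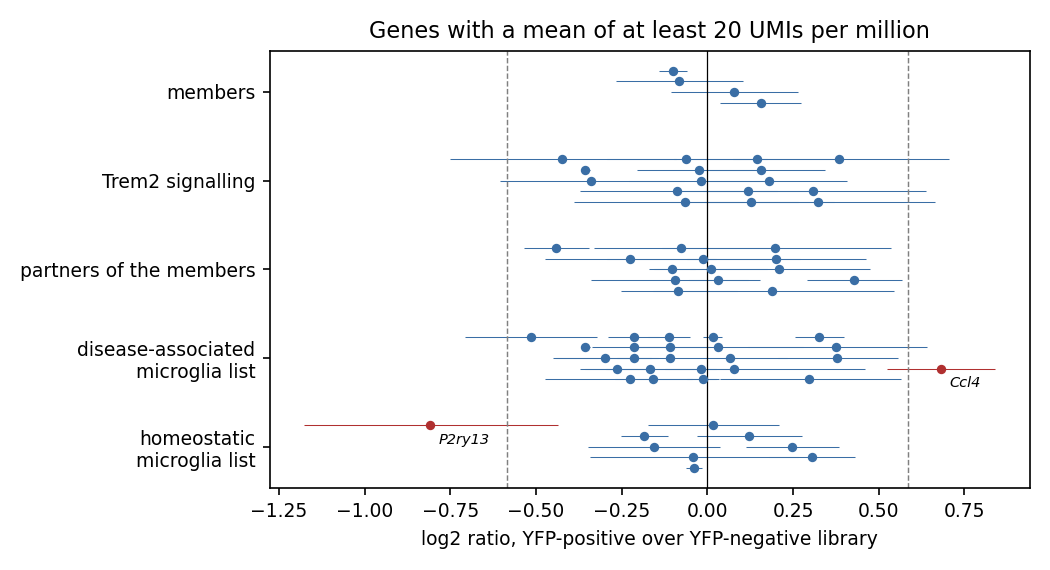
Log2 ratio, YFP-positive over YFP-negative library, of each member and listed gene with a mean of at least 20 CPM (horizontal axis), with 95% counting intervals. Rows are the members and the lists of genes, dashed lines mark 1.5-fold, and Ccl4 (0.68) and P2ry13 (-0.81) lie past them.

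Free RNA bears on how many cells can be said to express each member. Barcodes with 10 to 100 UMIs, taken as droplets without a cell, held Trem2 at 440 and 471 CPM in the YFP-negative and YFP-positive library, and Tyrobp at 3100 and 3175. Clec7a stood at 154 and 167 there, and Axl at 125 and 118. Free RNA in these libraries thus held the macrophage members at about the level of the cells themselves. The 5 markers of Schwann cells, the myelinating cells of the nerve, summed to 2631 and 4313 CPM in free RNA and to 499.99 and 507 in cells. The 8 macrophage markers summed to 20443 and 20966 in cells and to 23244 and 22170 in free RNA.

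To compare detection at equal depth, each cell was thinned to 500 UMIs. A Tyrobp UMI was then present in 71.4% of YFP-negative (interval 68.5 to 74.1%) and 70.4% of YFP-positive cells (69.0 to 71.8%). Beside them a cluster of 98 cells led by the smooth muscle genes Myl9 and Myh11 was taken. Its median was 950 UMIs, against 2233 and 1484 in all cells. Of its cells 32.7% (23.5 to 42.9%) held a Tyrobp UMI. They do not show what cells without Tyrobp look like, since macrophage RNA was present in them. In the 86 YFP-positive ones C1qa stood at 3004 CPM and Lyz2 at 6001, against 6158 and 12542 outside the cluster. Drawing 500 UMIs from free RNA alone would give one in 78.8% and 79.6% of barcodes, above the shares in cells. Since free RNA held the macrophage markers at about the level of cells, this comparison cannot set a macrophage gene apart from free RNA. It does not show how many cells express Tyrobp.

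The same limit holds for Trem2. It was detected in 12.2% (10.2 to 14.3%) and 15.6% (14.5 to 16.8%) of thinned cells. This stood against 8.16% (3.59 to 15.5%) of the Myh11-led cells and 19.7% and 21.003% from free RNA. Clec7a was detected in 7.08% (5.60 to 8.81%) and 6.39% (5.66 to 7.19%), against 2.04% (0.25 to 7.18%) and, from free RNA, 7.41% and 7.995%. Axl was detected in 7.37% (5.86 to 9.12%) and 7.08% (6.31 to 7.91%), against 9.18% (4.29 to 16.7%) and, from free RNA, 6.07% and 5.75%. The Trem2 and Clec7a shares thus lay below those of free RNA, though the YFP-negative Clec7a interval held the free RNA value. The Axl shares lay above those of free RNA, but in the YFP-negative library the interval held the free RNA value. In the YFP-positive library it left that value out, without counting error of free RNA, where Axl had 241 UMIs. There the Axl level in free RNA (interval 104 to 134 CPM) overlapped that in cells (131 to 149). Both Axl shares lay below the share of the Myh11-led cells, which held Axl themselves, at 172 CPM in the YFP-positive library. None of these shares was read as the share of cells that express the gene. Without thinning 40.7% and 37.5% of cells held a Trem2 UMI, an order opposite to that of the levels, and no order between libraries was read from either share.

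Variation among cells was described for the 4 detected members. After thinning, the variance over the mean of Trem2 UMIs was 1.12 in YFP-negative and 1.15 in YFP-positive cells, where 1 is the value of random sampling from like cells. It was above that of 77.7% and 88.5% of genes with a similar mean. Tyrobp (1.16 and 1.12), Clec7a (0.98 and 1.02) and Axl (1.02 and 1.01) stood above 12.6% to 60.9% of genes of like abundance. Mean counts per thinned cell were low, at 0.137 and 0.181 UMIs for Trem2, 0.073 and 0.067 for Clec7a and 0.078 and 0.074 for Axl. At such means the value stays near 1 even where levels differ between cells, so an even spread was not read from it.

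Levels were next compared between groups of cells. Clustering without the members and the listed genes gave 10 clusters, named here by their 2 leading genes. Trem2 was highest in the cluster led by S100a4 and S100a6, where Ccr2, the receptor by which monocytes enter tissue, was highest too. Of the 5 monocyte markers listed, Ccr2 alone was above the floor in these libraries. Ly6c2 and Vcan had 1 UMI each in YFP-negative and 0 in YFP-positive cells, and Plac8 and Chil3 had none. In the S100a4-led cluster Trem2 stood at 480 CPM in 48 YFP-negative cells (366 to 620) and at 533 in 532 YFP-positive cells (490 to 580). Over the other cells of each library this was a log2 ratio of 0.64 (0.23 to 1.02) and 0.73 (0.59 to 0.87). Both ratios were past 1.5-fold, as for 0.958% of the 5531 genes. In the YFP-positive library this cluster was set apart from the next, led by Ifit3 and Irf7, at 397 CPM.

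In the YFP-negative library Trem2 in this cluster did not differ beyond its interval from the clusters led by Fhl3 and Slc39a1 (431 CPM) and by Cxcl2 and Hspa1a (419). Elsewhere Trem2 ranged from 236 to 310 CPM in YFP-negative cells and from 258 to 367 in YFP-positive cells below the Ifit3-led cluster, leaving out the Myh11-led one at 172. Neighbours within these ranges did not differ beyond their intervals. Over all other cells, Trem2 was higher in Cxcl2-led YFP-negative cells (log2 ratio 0.46, 0.14 to 0.76). In Cxcl2-led YFP-positive cells the ratio was 0.07 (-0.08 to 0.22). Trem2 was lower than in all other cells in the cluster led by Slc39a1 and C5ar2 in both libraries. The log2 ratios of that cluster were -0.35 (-0.70 to -0.02) in YFP-negative and -0.37 (-0.60 to -0.14) in YFP-positive cells. In the YFP-positive library alone it was also lower in Cd209g-led (-0.47, -0.78 to -0.18) and Cyr61-led cells (-0.27, -0.43 to -0.10). In the S100a4-led cells, where Trem2 was highest, Apoe was below the other cells, at 18609 and 15213 CPM, log2 ratios of -0.58 and -0.57. With clusters made anew from cells of at least 1000 UMIs, the YFP-negative Trem2 ratio was 0.17, short of 1.5-fold.

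Axl was highest in the cluster led by Ifit3 and Irf7, genes induced by interferon. It stood there at 217 CPM in 49 YFP-negative cells (138 to 326) and at 222 in 164 YFP-positive cells (170 to 284). The log2 ratios over other cells were 0.75 (0.08 to 1.37) and 0.70 (0.31 to 1.07), both past 1.5-fold, as for 2.01% of genes. In either library the next cluster in order lay within the interval of the difference. Among groups of at least 30 cells, the lowest Axl levels were 85.2 CPM in the YFP-negative Cd209g-led cells and 67.3 in the YFP-positive cycling cells led by Top2a. Gas6 was highest in the cluster led by Cd209g and Cd209f, at 699 and 681 CPM, where its receptor Axl was low.

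In YFP-negative groups of at least 30 cells Tyrobp, the adaptor, was lowest in the cells led by Cxcl2 and Hspa1a, at 2042 CPM. In YFP-positive cells it stood at 2198 there and lower still in Top2a-led cells, at 1898, and in the Myh11-led cells, at 1203. The Cxcl2-led cluster is marked by immediate-early and heat-shock genes that also rise when tissue is dissociated, and their part in the Tyrobp value was not tested. Log2 ratios over other cells were -0.48 (-0.61 to -0.35) and -0.28 (-0.34 to -0.22), short of a 1.5-fold fall, which 3.06% of genes passed. With no gene left out of the clustering the YFP-negative ratio was -0.22.

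Over groups of at least 30 cells, Clec7a ranged from 116 to 155 CPM in the YFP-negative and from 49.1 to 154 in the YFP-positive library. No neighbouring clusters in these orders differed beyond their intervals, but neighbours are the pairs least apart. Over all other YFP-positive cells, Clec7a was higher in mt-Co3-led cells (log2 ratio 0.32, 0.07 to 0.57). It was lower in Cxcl2-led (-0.28, -0.55 to -0.02), Cd209g-led (-0.49, -1.02 to -0.002), Top2a-led (-0.93, -1.92 to -0.10) and Myh11-led cells (-1.38, -2.78 to -0.27). In the YFP-negative library no cluster differed from the other cells beyond its interval. Clec7a, a gene of the disease-associated state in brain, also had 4 UMIs in the 13 YFP-negative Top2a-led cells, at 73.4 CPM, and none in the 12 YFP-negative Myh11-led cells.

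**Figure D3:**
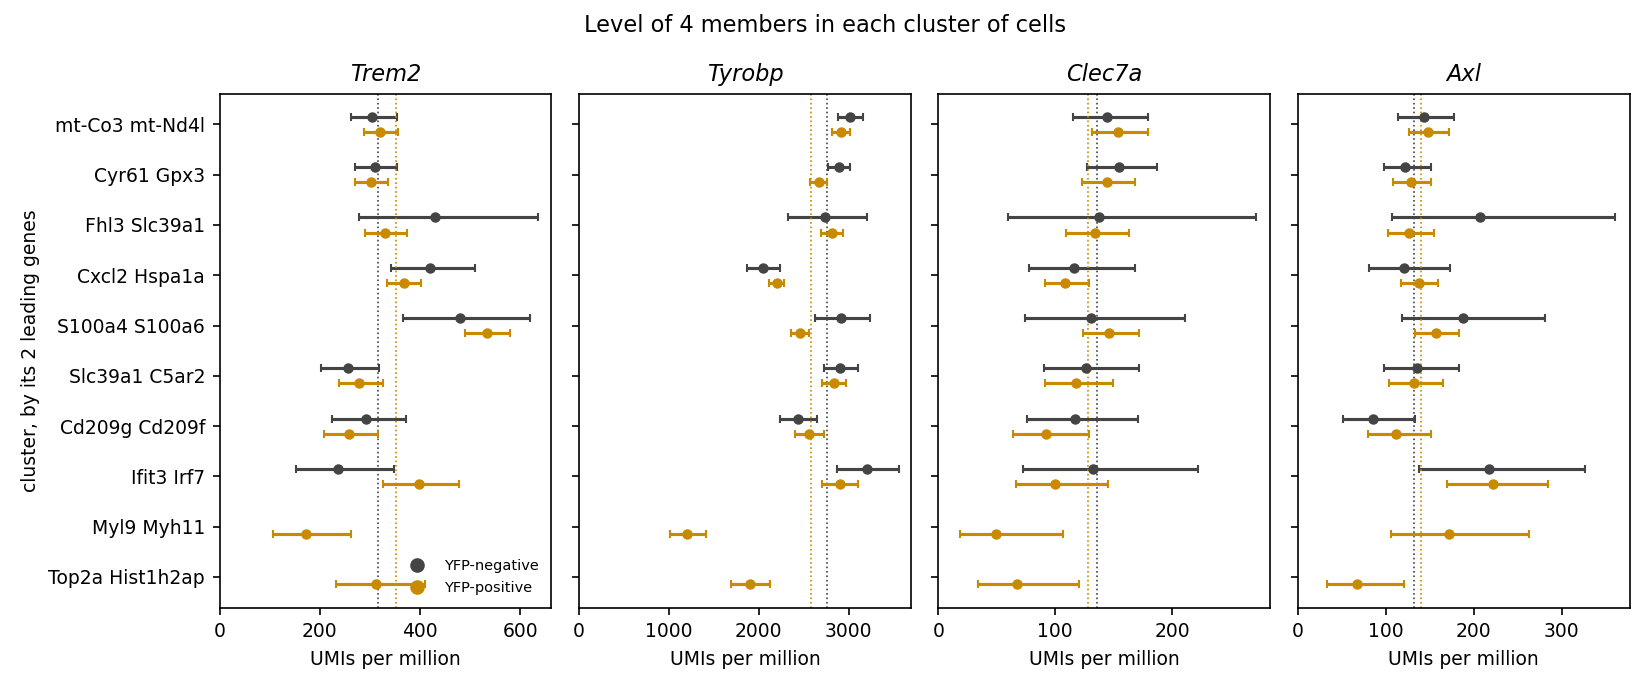
Level of Trem2, Tyrobp, Clec7a and Axl (CPM, horizontal axes from 0) in each cluster, for YFP-negative (grey) and YFP-positive (ochre) cells, with exact Poisson 95% intervals. Groups under 30 cells are left out and dotted lines mark each library's level. Trem2 peaks in S100a4-led cells at 480 and 533, Axl in Ifit3-led cells at 217 and 222.

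Of the 5 members with enough UMIs to compare, Spp1 was the most unevenly spread. Of its 164 UMIs in 95 cells, 58 (35.4%) lay in 23 cells of the Myh11-led cluster, which made up 1.92% of all cells. The cluster held Spp1 at 1288 CPM in 12 YFP-negative cells (23 UMIs) and at 287 in 86 YFP-positive cells (35 UMIs). 1 YFP-negative cell had 11 of these UMIs. Without it the 12 remaining UMIs gave 858 CPM. The RNA of the cluster differed between libraries. In its YFP-negative cells Myh11 had 0 UMIs, Acta2 (smooth muscle actin) stood at 224 CPM, Mbp at 9971 and Pmp22 at 16918. In its YFP-positive cells Myh11 stood at 991 CPM, Acta2 at 2431, the collagen gene Col3a1 at 933, Mbp at 4151 and Pmp22 at 6222. Schwann cell RNA was thus the larger part in the YFP-negative cells, and the Spp1 levels of the cluster are not compared between libraries. Fewer macrophages and less macrophage RNA per barcode cannot be told apart in it.

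Outside this cluster 106 Spp1 UMIs in 72 cells remained, at 9.58 CPM in YFP-negative and 12.5 in YFP-positive cells. The log2 ratio between libraries was then 0.35 (-0.27 to 1.01), against -0.12 with all cells, and both intervals hold 0. Free RNA held Spp1 at 80.3 and 61.9 CPM, so barcodes outside the cluster held 11.9% and 20.2% of the free level. For the Schwann cell genes Mbp, which encodes myelin basic protein, and S100b these shares were 3.59% and 3.24% and 2.35% and 3.07%. Spp1 thus kept a larger part of its free level in them than Mbp, S100b and Prx did, and a far smaller part than Trem2 (72.5% and 75.6%) or Axl (106% and 117%). Pmp22, Dcn and Lum lay above Spp1 in the YFP-negative library and below it in the YFP-positive library. Pmp22, a myelin gene that other cells also express, was at 26.7% and 17.8%. The fibroblast genes Dcn and Lum, which encode matrix proteoglycans, were at 20.97% and 11.6% and at 34.5% and 7.52%. The mural markers compared lay below Spp1 in both libraries, at 5.41% to 8.12% and 2.19% to 4.72%. So did the collagen gene Col1a2, at 4.74% and 8.37%.

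Barcodes outside the Myh11-led cluster with an Spp1 UMI held nerve-cell RNA at about the level of those without. Mural, Schwann and fibroblast markers summed to 332 CPM in them and to 329.6 in the rest, or 423 against 306 in the YFP-negative and 295 against 338 in the YFP-positive library. Of these 72 cells, 18 held 2 or more Spp1 UMIs, up to 6 in a single S100a4-led and a single Fhl3-led cell. Over both libraries the level was 26.8 CPM in S100a4-led, 24.7 in Fhl3-led, 45.9 in Top2a-led and 14.9 in Cxcl2-led cells, against 2.60 to 5.59 in the other clusters. These levels rested on few cells and differed between libraries. S100a4-led cells held 1 UMI (8.14 CPM) in the YFP-negative and 30 (29.0) in the YFP-positive library, of which 2 cells held 6 and 5. Fhl3-led cells held 4 UMIs (68.9 CPM), all in 1 cell, and 16 (21.3), of which 2 cells held 6 and 4. Top2a-led cells held 6 (110 CPM) and 4 (24.5). No order of the clusters was read from them. The variance over the mean of thinned Spp1 UMIs was 1.90 and 1.58, against medians of 0.99 for genes of like abundance in both libraries. How far free RNA accounts for the single Spp1 UMIs was not tested.

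Of the 12 Gpnmb UMIs, 4 lay in S100a4-led cells, and 2 of the 3 Itgax UMIs did, counts too low to compare. Itgb2 and Itgam, which encode the beta chain that pairs with integrin alpha X and the related alpha M chain, stood at 63.7 and 73.8 and at 64.9 and 74.7 CPM. The partner chain was thus counted where Itgax was not clearly detected.

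**Figure D4:**
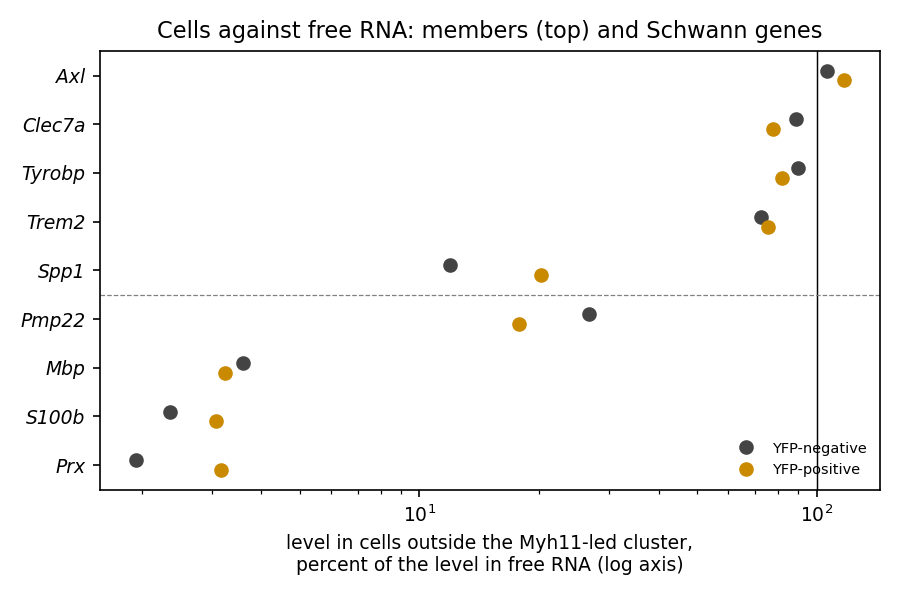
Level in cells outside the Myh11-led cluster as percent of the level in free RNA of the same library (log axis), for 5 members above the dashed line and 4 Schwann cell genes below it, with 100% marked. Trem2, Tyrobp, Clec7a and Axl lie between 72.5 and 117%, Spp1 at 11.9 and 20.2%, and Mbp at 3.59 and 3.24%.

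Co-detection of most pairs of members lay within counting error of what their separate frequencies give. In YFP-positive cells thinned to 500 UMIs, 463 cells held UMIs of both Trem2 and Tyrobp, against 446 expected if the genes were independent (ratio 1.04, interval 0.95 to 1.13). For Trem2 and Clec7a 30 cells were found against 40.5 expected, and for Trem2 and Axl 50 against 44.8. The intervals of these ratios hold 1. In YFP-negative cells 0 held both Clec7a and Axl, against 5.45 expected (ratio up to 0.68), and 13 of 18.3 expected did in YFP-positive cells (0.71, interval 0.38 to 1.21). At 1000 UMIs per cell the YFP-negative ratio was 0.71 (0.34 to 1.31). Cell by cell, correlations of the 6 pairs of detected members lay between -0.08 and 0.03, as sparse counts allow, and are no finding.

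Over 18 groups of cells (cluster by library, at least 30 cells each), Tyrobp and Clec7a followed each other with a Pearson correlation of 0.84 of log2 levels. The other pairs lay between 0.16 and 0.49. These groups share libraries, and both genes are low in the Myh11-led group. Of 2632 genes, those most like Trem2 were Coro1a (0.89), Apobec1 (0.89) and Cdc42 (0.85). Those most like Tyrobp were Fcgr3 (0.94), P2ry6 (0.94) and Fcer1g (0.93), of which Fcgr3 and Fcer1g encode an Fc receptor and its adaptor chain. Clec7a was most like the ribosomal protein genes Rpl35a (0.92), Rpl10 (0.87) and Rpl7 (0.87), and Axl was most like Madd (0.81), Rxylt1 (0.77) and Ppt1 (0.76). None of these genes was shared between members.

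The cells carried macrophage markers as their label says, with 8 of 8 detected in both libraries. T cell markers (4 of 5 at 0 in either library, summed level 0.41 and 0.89 CPM) and mast cell markers (3 of 4 at 0, 0.41 and 0.30) were near or at the floor. Of the neutrophil markers 4 of 5 were at 0, and Csf3r alone, with 40 and 79 UMIs, gave their sum of 16.5 and 11.7 CPM. Dendritic cell markers, the other cells known for Itgax, summed to 72.0 and 64.6 CPM, of which Cd209a alone gave 58.7 and 47.7. Of the 7 markers 4 and 1 were at 0. Flt3, with 18 and 72 UMIs (7.44 and 10.7 CPM), and Zbtb46, with 14 and 38 (5.79 and 5.63 CPM), were above the floor in both libraries. In the YFP-positive library Xcr1 had 2 UMIs and Clec9a and Itgae had 1 each, under the floor. Mural markers summed to 11.2 and 145 and fibroblast markers to 23.6 and 94.6. The libraries held 2418044 and 6747554 UMIs in cells, 66.2% and 72.0% of all UMIs in the matrices. Of the called barcodes 7 occurred in both libraries.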

How the data were processed

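The number of pooled mice is that of the labels, and a figure legend of the study gives another. Single-cell data of both libraries were taken from the deposited matrices, which hold raw UMI counts per gene for all barcodes. Per the labels and the study's methods the authors aligned reads to GRCm38 with Cell Ranger (version 3.0.2 in the submitters' processing notes, beside Seurat 2.2.0; the study's methods name another Cell Ranger version), and the annotation release is not given in the sources used here. The study kept cells by mapped reads, which UMI counts do not give, so barcodes with at least 500 UMIs and 200 genes were used.

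Counts were summed per library and scaled to CPM (counts per 1000000). Exact Poisson and Clopper-Pearson intervals were given at 95% and the floor was 3 counts. UMIs of free RNA came from barcodes of 10 to 100 UMIs. Ratios used log2 of the level plus 1. Thinning drew 500 UMIs per cell (seed 0), which left no cell out. Clusters used scanpy 1.11.5 and Leiden (leidenalg 0.10.2), with 2000 variable genes, 20 components, 20 neighbours and resolution 0.8, leaving out 92 member and listed genes. Scrublet marked 3 (0.287%) and 0 cells, and so did not work. Doublets were kept. Of 54838 gene IDs, 99.9% matched GENCODE M21. Ratios and their intervals were tested on simulated Poisson counts, which hold only the counting error that the intervals cover. Thinning was checked on the YFP-negative cells themselves.

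The members and lists were chosen with earlier results of these data known. All members were named, and of each list the genes past 1.5-fold at a mean of at least 20 CPM and up to 3 of the highest level. For likeness the 3 highest correlations were named, among genes of at least 50 CPM. Treml2, Treml1, Trem1, Trem3, Treml4, Sall1, Itgb2 and Itgam were named after their values were seen. Leaving out the S100a4-led cluster was chosen after seeing the data. Of 7 Schwann cell markers listed, 2 are not reported here and were left out of the sums.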

Additional observations from a re-analysis of the deposited data

Results flagged for a closer look

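Levels in barcodes of 10 to 100 UMIs, which enter no comparison between cells, lay above those in cells for several members. For Trem2 they were 439.7 CPM in the YFP-negative and 471 in the YFP-positive library, against 317 and 353 in cells. For Tyrobp they were 3100 and 3175, against 2764 and 2578. For Spp1 they were 80.3 and 61.9, against 19.0 and 17.5. For Clec7a in the YFP-positive library the value was 167, against 128. The part of lysed macrophages, small cells and nerve cells in these barcodes was not tested.

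The log2 ratio of Tyrobp between libraries pointed opposite ways in different clusters. It was -0.12 in the Cyr61-led and -0.25 in the S100a4-led cluster, and 2.42 in the Myh11-led cluster. There 4 YFP-negative and 147 YFP-positive UMIs were counted in 12 and 86 cells. The RNA of the Myh11-led cluster differed between libraries, with Lyz2 at 728 CPM in its YFP-negative and 6001 in its YFP-positive cells. Its Tyrobp ratio is therefore not read as a difference between like cells. The difference between clusters was not tested.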

How the results depend on the processing

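Of 128 recomputed values, 106 stayed within the counting interval of the value reported and 22 moved beyond it. Leaving out cells marked by Scrublet is not among these, since it marked 3 and 0 cells. None turned direction where its interval left out 0. The count of members past 1.5-fold remained 0 under each of the 6 alternatives run for it. Without thinning, shares of cells with a UMI in the YFP-negative and YFP-positive library were 40.7% and 37.5% for Trem2, 94.6% and 91.7% for Tyrobp, 24.0% and 18.1% for Clec7a, 23.0% and 19.8% for Axl, and 2.11% and 1.80% for Spp1. In cells of at least 1000 UMIs thinned to 1000 they were 23.7% and 28.8% for Trem2, 92.0% and 90.9% for Tyrobp, 12.3% and 11.6% for Clec7a, and 12.7% and 12.6% for Axl, and 1.12% for Spp1 in the YFP-positive library. A higher UMI number per cell raises such shares by construction. With clusters from cells of at least 1000 UMIs, the YFP-negative log2 ratio of Trem2 in the Ccr2-rich cluster was 0.17. With no gene left out of the clustering, that of Tyrobp in the Hspa1a-rich cluster was -0.22. The Clec7a and Axl co-detection ratio in YFP-negative cells was 0.714 at 1000 UMIs. The cause of these shifts was not tested.

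The Trem2 ratio between libraries lay between 0.06, without the S100a4-led cells, and 0.18. No paired analysis was possible because each condition is 1 library, and no p-value, standard error over samples or left-out replicate can be had. Depth limits Cst7, Itgax and Gpnmb most.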
